A study of Caenorhabditis elegans with 8 samples.

Results

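The 9 genes described here act at the start of meiotic prophase in Caenorhabditis elegans. They are the pairing-centre zinc finger genes him-8, zim-1, zim-2 and zim-3, and the break formation genes spo-11, dsb-1, dsb-2, him-17 and him-19. They were taken by WormBase name from the 46748 genes counted in each library, and all 9 were found. They were chosen by function and by their measured 3A-to-WT differences: earlier results of these data were in view, among them that him-19 and dsb-2 stood near the top of a longer meiosis list. The differences between genotypes below are therefore given as a description, with no test read from them.

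In the worm, homologous chromosomes find each other through pairing centres, regions near one end of each chromosome. HIM-8 binds the pairing centre of the X chromosome and its ZIM relatives bind those of the autosomes, linking them to the nuclear envelope and the cytoskeleton. Recombination begins when SPO-11, a topoisomerase-like enzyme, cuts both DNA strands, and the other break formation genes are needed for normal numbers of these cuts. Many him mutants were found because errors in X chromosome segregation give a high incidence of males. Meiosis takes place in the larval and adult gonad, and the primordial germ cells of an embryo have not entered it.

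The study measured poly(A)-selected, strand-specific RNA of whole late embryos in 4 libraries for each of 2 genotypes, grown at 20 °C. Both carry lin-52 fused to GFP and 3xFLAG at its own locus. WT is lin-52(bn139), with the tagged protein otherwise unaltered, and 3A is bn151, with the substitutions L42A, C44A and E46A in the same tagged protein. LIN-52 belongs to MuvB, the core of the DREAM repressor complex, and the substitutions were made to sever MuvB from the pocket protein LIN-35. The series asked which genes are misexpressed after that loss. Each genotype is 1 edited allele, and an untagged strain was not analysed here. Each culture was bleached after 72 h and the embryos were kept for up to 3.5 h before freezing.

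Depth ranged from 14667743 to 68040557 gene counts per library. A count of 3, taken as the smallest detectable signal, corresponded to 0.0229 to 0.275 CPM, CPM here being counts per 1000000 with library sizes adjusted by edgeR's TMM factors. Ribosomal RNA took 0.720% to 3.24% of the counts in WT and 1.75% to 40.7% in 3A. The altered gene, lin-52, averaged 6.78 ± 3.81 CPM in WT and 6.86 ± 2.66 CPM in 3A (n = 4 each, SD), a log2 difference of 0.0032 (SE 0.41). Marker lists for muscle, intestine, epidermis and neurons were detected in full. WT replicate 1 stood apart. Its 7 muscle markers summed to 3390 CPM, against 613 to 871 CPM in the other WT libraries and 543 to 1518 CPM in 3A. WT replicate 1 was also the highest library for intestine, epidermis and neuron markers. Its sums there were 468, 2460 and 275 CPM. The highest sums in the other WT libraries were 150, 1133 and 99.2 CPM, and in 3A 212, 1829 and 152 CPM. The 10 germ line markers summed to 199 CPM in WT replicate 1, to 50.3 to 74.2 CPM in the other WT libraries and to 91.0 to 171 CPM in 3A. The 13 early embryo and maternal markers summed to 102 CPM in WT replicate 1, to 39.0 to 56.0 CPM in the other WT libraries and to 56.7 to 91.0 CPM in 3A. Without WT replicate 1 neither the germ line sums nor the early embryo sums overlapped between the genotypes. Of the early embryo markers med-1 had 0 counts in every library and med-2 had 1 count in all. Yolk, sperm and adult collagen markers, 11 in number, summed to between 101 and 118 CPM in WT replicate 4 and 3A replicates 3 and 4, and to between 2.71 and 14.7 CPM in the other libraries. The part of these differences in the values below was not tested.

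Fitted over all genes, all 9 members had a positive log2 fold change of 3A against WT, from 0.076 for zim-1 to 1.95 for him-19, although him-8, zim-1 and him-17 fell below 0 when libraries were scaled by size alone. With that scaling the others stayed positive, at 1.72 for him-19, 1.11 for zim-2, 0.62 for dsb-2, 0.48 for spo-11, 0.33 for dsb-1 and 0.12 for zim-3. Positive values made up 42.8% of the 12664 genes tested. The median was 0.70 over the members and -0.083 over all genes tested. An upward shift was not particular to the members. Medians were 0.587 for the germ line markers, 0.76 for the early embryo and maternal markers and 0.845 for the yolk, sperm and adult collagen markers. For muscle, intestine, epidermis and neuron markers they were -0.30, -0.25, -0.135 and -0.53. The break formation genes had a median of 0.88 (0.30 to 1.95) and the pairing genes one of 0.32 (0.076 to 1.61). him-19 and dsb-2, known beforehand to stand out, are both break formation genes, so nothing is read from that order. None of the 9 had an adjusted p-value under 0.05 in the edgeR quasi-likelihood test, where 0.371% of all genes did. Their adjusted p-values ran from 0.0564 to 0.979. Before adjustment 3 of the 9 were under 0.05 and higher in 3A, namely him-19, dsb-2 and zim-2, against 5.72% of all genes. DESeq2 gave an adjusted p-value under 0.05 to 2 of the 9, him-19 and dsb-2, against 1.33% of all genes. him-19 alone passed in edgeR with no filter on low counts, where 0.335% of all genes did, and without WT replicate 1, where 1.49% did. In 4 of the 9 genes, him-19, dsb-2, dsb-1 and zim-2, every 3A library lay above every WT library, as in 3.80% of all genes. Nothing is read from these shares, since the contrast served in the choice. All 9 passed the filter on low counts. The number of genes called over the whole table, 47, was 196 without WT replicate 1, 18 without WT replicate 2, 25 without WT replicate 3, 30 without 3A replicate 1 and 18 without 3A replicate 3. The RNA came from whole embryos, so the cells that held these transcripts are not known. A change in the number of such cells and a change in RNA per cell cannot be told apart. The part of the library differences in early embryo and adult tissue markers was not tested either.

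**Figure D1:**
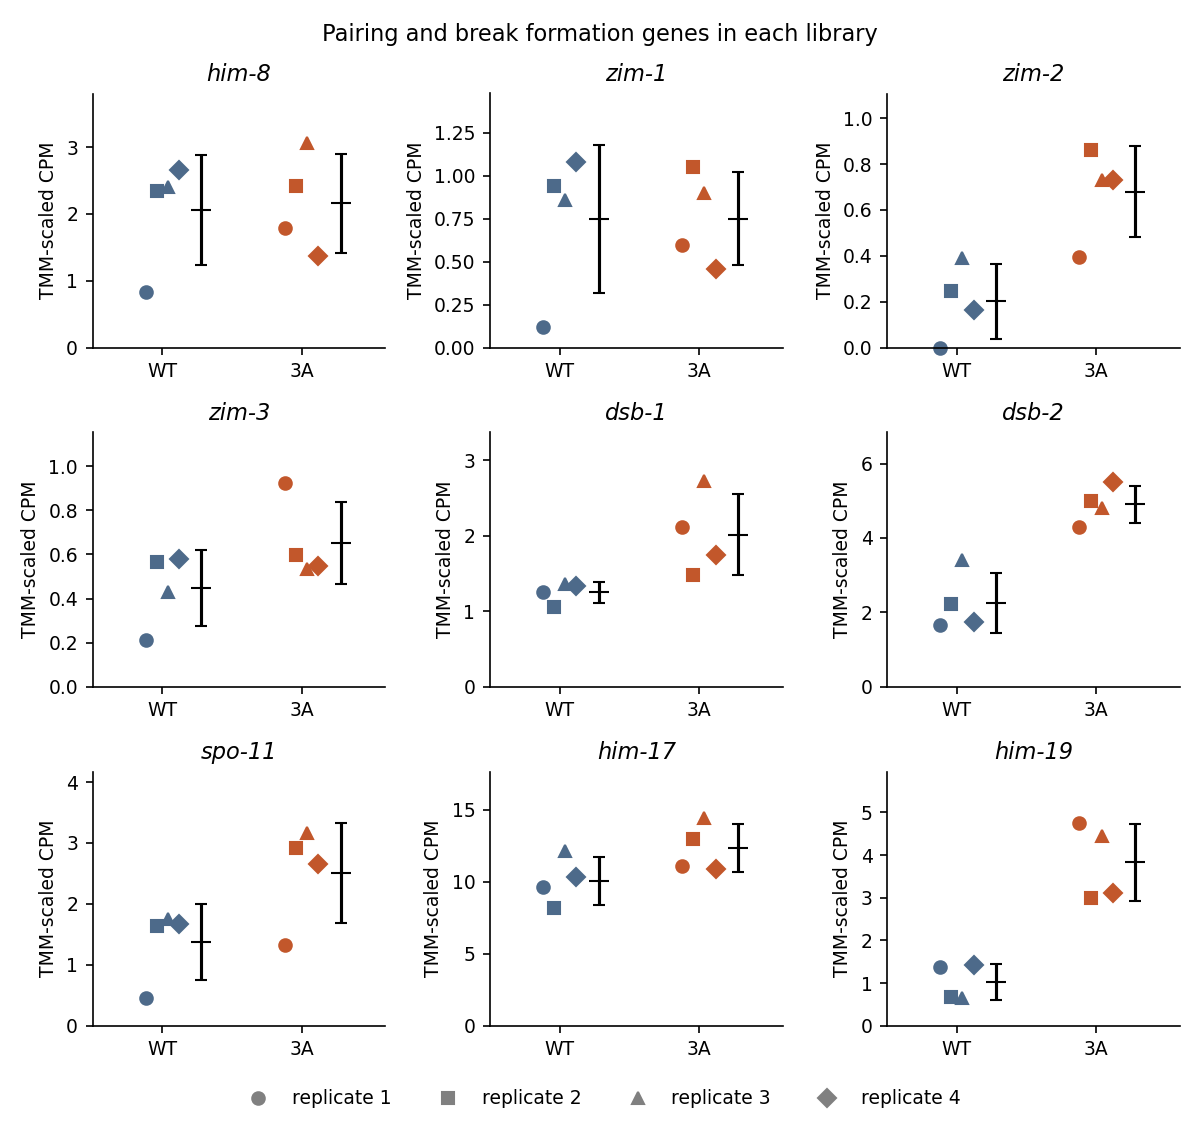
Level of each gene in TMM-scaled CPM in the 4 WT and 4 3A libraries, with 1 symbol for each replicate number and the mean ± SD (n = 4) beside the points. The groups are apart for zim-2, dsb-1, dsb-2 and him-19, and WT replicate 1 is the lowest point of 6 panels.

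him-19 showed the largest difference. The gene is required for normal pairing and break formation in the worm, and it lies on chromosome I, 889767 to 895099, minus strand (WBcel235), with 11 merged exons and a longest protein of 413 residues. WT replicates 1 to 4 held 1.38, 0.677, 0.658 and 1.41 CPM of it, and 3A replicates 1 to 4 held 4.76, 2.99, 4.45 and 3.11 CPM. All 3A libraries were above all WT libraries, with a gap between the groups wider than the whole range of WT. WT averaged 1.03 ± 0.421 CPM and 3A 3.83 ± 0.908 CPM (n = 4 each, SD), a 3.86-fold difference in the fit (log2 fold change 1.95, SE 0.37). It ranked 52 among the 12664 genes by p-value. The 3′ part of him-19 overlaps Y95B8A.6 on the opposite strand over 310 bp of exon. That neighbour averaged 3.49 ± 1.67 CPM in WT, with 3A at 3.16 ± 0.152 CPM (log2 fold change -0.13, SE 0.35). The gene on the other side, the G protein alpha subunit gene gpa-16, had a log2 fold change of 0.77 (SE 0.37), with overlapping groups.

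dsb-2 and dsb-1 encode related proteins that make chromosomes competent for break formation. dsb-2 lies on chromosome II, 14411095 to 14412218, plus strand, and its 5 exons encode 280 residues. In order of number, the WT libraries had 1.65, 2.22, 3.40 and 1.74 CPM and the 3A libraries 4.30, 4.996, 4.82 and 5.50 CPM. The 3A libraries were all above the WT libraries and close to each other. The mean went from 2.25 ± 0.806 to 4.90 ± 0.495 CPM (n = 4 each, SD), with a log2 fold change of 1.10 (SE 0.30). The gene shares 17 bp of exon with exl-1, a chloride channel-like gene on the opposite strand, which was near 26.3 CPM in WT and 23.5 CPM in 3A (log2 fold change -0.16, SE 0.26). The upstream neighbour F26H11.4, on the same strand 252 bp away, averaged 0.132 ± 0.110 CPM in WT against 0.466 ± 0.434 CPM in 3A (n = 4 each, SD), with overlapping groups, and was too low to be tested.

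dsb-1 lies on chromosome IV, 12408925 to 12410470, plus strand, and encodes up to 385 residues. Levels by replicate number were 1.26, 1.05, 1.36 and 1.33 CPM for WT, and 2.11, 1.48, 2.73 and 1.74 CPM for 3A. The groups did not overlap, but the gap between 3A replicate 2 and WT replicate 3 was small beside the spread of the 3A libraries. From WT to 3A the mean went from 1.25 ± 0.140 to 2.02 ± 0.540 CPM (n = 4 each, SD), with a log2 fold change of 0.70 (SE 0.32). The upstream neighbour gex-3, a gene of the WAVE actin-regulating complex on the same strand 234 bp away, had a log2 fold change of -0.11 (SE 0.37). The downstream neighbour acl-13, an acyltransferase-family gene, had 0 CPM in every library.

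spo-11, on chromosome IV, 11123133 to 11124862, minus strand, encodes the enzyme that makes the cut, with up to 425 residues. WT replicates 1 to 4 gave 0.449, 1.63, 1.75 and 1.66 CPM, and 3A replicates 1 to 4 gave 1.32, 2.92, 3.16 and 2.66 CPM. WT replicate 1 and 3A replicate 1 were the low libraries of their groups, and 3A replicate 1 fell among the WT values. Mean spo-11 levels were 1.37 ± 0.618 and 2.51 ± 0.820 CPM (n = 4 each, SD), with a log2 fold change of 0.88 (SE 0.44) that was 0.61 (SE 0.34) without WT replicate 1. On one side its exons overlap those of enpl-1, an endoplasmic reticulum chaperone gene on the opposite strand, by 23 bp, and enpl-1 had a log2 fold change of 0.05 (SE 0.25). On the other side, 1161 bp away and divergently transcribed, lies swsn-4, the ATPase gene of the SWI/SNF remodeller. swsn-4 had 94.0 to 173 CPM in WT and 184 to 247 CPM in 3A, a log2 fold change of 0.90 (SE 0.29), close to that of spo-11.

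him-17, on chromosome V, 13176711 to 13180185, plus strand, encodes a chromatin-associated protein of 954 residues that is needed for breaks. It was the member with the highest CPM, with 9.62, 8.16, 12.1 and 10.3 CPM in the WT libraries in order of number and 11.1, 12.9, 14.4 and 10.9 CPM in the 3A libraries. The groups overlapped, with WT replicate 3 above 3A replicates 1 and 4. Mean him-17 levels were 10.05 ± 1.65 and 12.3 ± 1.65 CPM (n = 4 each, SD), with a log2 fold change of 0.30 (SE 0.24), and -0.039 (SE 0.52) when libraries were scaled by size alone. The neighbours on its strand, noca-1 and cni-1, were lower in mean level in 3A, with log2 fold changes of -0.20 (SE 0.24) and -0.54 (SE 0.35).

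The 4 pairing-centre genes lie next to each other on chromosome IV, all on the plus strand, in the order zim-1 (10547086 to 10555513), zim-2 (10555247 to 10558225), zim-3 (10558715 to 10561429) and him-8 (10561905 to 10563974). From the first to the last base they span 16889 bp. zim-1 and zim-2 share 223 bp of exon on the same strand, where a read counts to neither gene. The gaps after zim-2 and zim-3 are 489 and 475 bp. The proteins are up to 606, 584, 581 and 361 residues long in that order, HIM-8 being the shortest. Outside the cluster, the neighbour T07G12.5 was too low to be tested, and efn-2, an ephrin gene, had a log2 fold change of -0.46 (SE 0.33) with overlapping groups. With dsb-1 and spo-11, 6 of the 9 members are on chromosome IV.

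**Figure D2:**
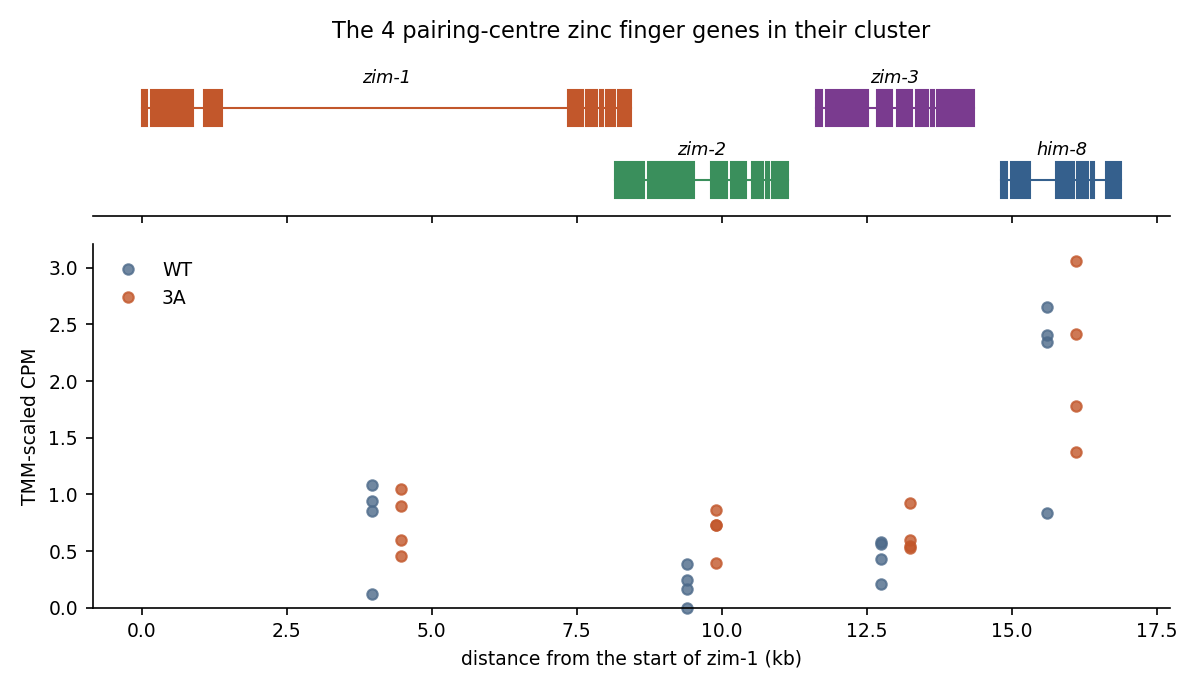
Upper panel: exons (boxes) of the 4 pairing-centre genes against distance from the start of zim-1 in kb, in 2 rows for legibility. Lower panel: TMM-scaled CPM of each gene in the 4 WT and 4 3A libraries at the gene's middle, with the groups offset sideways; only zim-2 has groups that do not overlap.

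him-8 recognises the X pairing centre. Among WT libraries it stood, by number, at 0.839, 2.35, 2.41 and 2.66 CPM, and among 3A libraries at 1.78, 2.41, 3.06 and 1.37 CPM. Apart from the low WT replicate 1, the WT libraries lay within the range of 3A. The means were 2.06 ± 0.827 and 2.16 ± 0.737 CPM (n = 4 each, SD), with a log2 fold change of 0.094 (SE 0.40) that became -0.14 (SE 0.33) without WT replicate 1, -0.13 (SE 0.44) without 3A replicate 3 and -0.26 (SE 0.66) with scaling by library size alone.

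zim-1 recognises the pairing centres of chromosomes II and III. WT replicates 1 to 4 gave 0.120, 0.939, 0.856 and 1.08 CPM, and 3A replicates 1 to 4 gave 0.595, 1.05, 0.897 and 0.458 CPM. The groups overlapped and the means were nearly equal, at 0.749 ± 0.429 and 0.751 ± 0.272 CPM (n = 4 each, SD). The fitted log2 fold change was 0.076 (SE 0.56), and it was -0.24 (SE 0.40) without WT replicate 1, -0.13 (SE 0.65) without 3A replicate 2, -0.013 (SE 0.66) without 3A replicate 3 and -0.28 (SE 0.76) with scaling by library size alone.

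zim-3 serves chromosomes I and IV. Its CPM by replicate number was 0.210, 0.566, 0.428 and 0.581 for WT and 0.925, 0.598, 0.532 and 0.549 for 3A. WT replicate 1 was the lowest library and 3A replicate 1 the highest, and the other 6 overlapped. Mean zim-3 levels were 0.446 ± 0.172 and 0.651 ± 0.185 CPM (n = 4 each, SD), with a log2 fold change of 0.55 (SE 0.44). It was 0.34 (SE 0.43) without WT replicate 1 and 0.36 (SE 0.50) without 3A replicate 1.

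zim-2, which serves chromosome V, had the lowest mean CPM of the members in WT and the largest log2 fold change of the pairing genes. In 3A its mean CPM was slightly above that of zim-3. WT replicates 1 to 4 gave 0, 18, 51 and 2 counts, and 3A replicates 1 to 4 gave 6, 36, 22 and 8 counts. Scaled, these were 0, 0.249, 0.390 and 0.166 CPM in WT and 0.397, 0.861, 0.731 and 0.733 CPM in 3A. The groups did not overlap, but 3A replicate 1 and WT replicate 3 were nearly level. In WT replicates 1 and 4 the counts were at or under the floor of 3. Mean zim-2 levels were 0.201 ± 0.163 and 0.680 ± 0.199 CPM (n = 4 each, SD), with a log2 fold change of 1.61 (SE 0.67). It was 1.24 (SE 0.47) without WT replicate 1 and 2.204 (SE 0.78) without WT replicate 3.

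Ratios of counts within a library do not depend on how libraries are scaled. Counts of him-19 for each him-17 count were 0.143, 0.0829, 0.0542 and 0.137 in the WT libraries by number, and 0.429, 0.231, 0.310 and 0.286 in the 3A libraries. The ratios of all 3A libraries were above those of all WT libraries, with means of 0.104 ± 0.0431 in WT and 0.314 ± 0.0833 in 3A (n = 4 each, SD). him-19 was known beforehand to stand out and him-17 had a log2 fold change of only 0.30, so nothing is read from that separation. The ratio of dsb-2 to spo-11 overlapped, at 1.05 to 3.67 in WT and 1.53 to 3.25 in 3A. The ratio of dsb-2 to dsb-1 overlapped between the genotypes, at 1.31, 2.12, 2.50 and 1.31 in the WT libraries and 2.03, 3.37, 1.77 and 3.16 in the 3A libraries. Of the counts of the 4 pairing genes, zim-2 took 0%, 6.06%, 9.55% and 3.70% in the WT libraries and 10.7%, 17.5%, 14.01% and 23.5% in the 3A libraries. The groups of shares were apart, but the counts behind them were few: 39 counts of the 4 genes in WT replicate 1, where 0 for zim-2 allows a share of up to 7.69% by the floor of 3 counts and 8.97% by the upper 95% Wilson limit, and 34 in 3A replicate 4, where the 95% Wilson interval ran from 12.4% to 40.0%. For WT replicate 3 and 3A replicate 1, the neighbouring values, the intervals were 7.34% to 12.3% and 5.004% to 21.5% and overlapped. Intervals and floors cover counting error only. The share of him-8 among the counts of the 4 genes was 57.2% to 71.8% in WT and 44.1% to 58.6% in 3A, with overlapping groups.

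**Figure D3:**
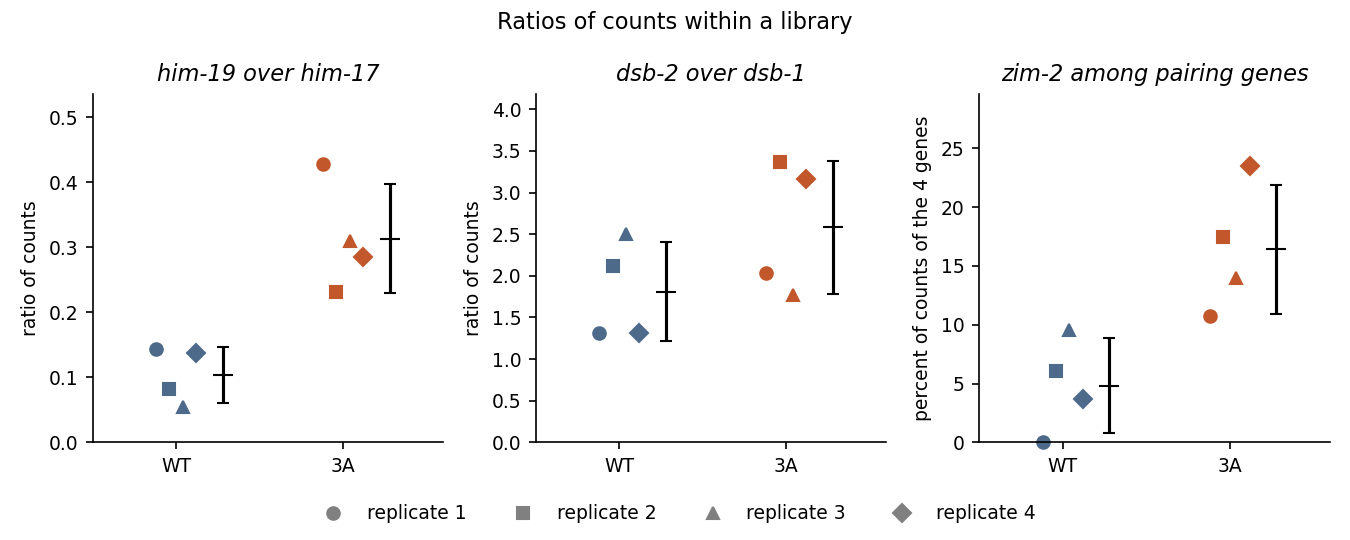
Counts of him-19 per him-17 count, counts of dsb-2 per dsb-1 count, and percent of the pairing genes' counts taken by zim-2, in each WT and 3A library with 1 symbol per replicate number and the mean ± SD (n = 4). The first and the last separate the groups, and the dsb-2 to dsb-1 ratio overlaps.

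Levels of different genes were compared per kb of merged exon. In WT the order was him-17 at 3.25 ± 0.533 CPM per kb, dsb-2 at 2.41 ± 0.860, him-8 at 1.65 ± 0.660, dsb-1 at 0.964 ± 0.108, spo-11 at 0.959 ± 0.432, him-19 at 0.733 ± 0.299, zim-1 at 0.370 ± 0.212, zim-3 at 0.203 ± 0.0784 and zim-2 at 0.0853 ± 0.0691 (n = 4 each, SD). The ranges of all neighbours in that order overlapped. All 9 means were under 3.64 CPM per kb, the median of the 12585 tested genes with an annotated length. In 3A dsb-2 came first at 5.23 ± 0.529 CPM per kb, him-17 next at 3.99 ± 0.533 and then him-19 at 2.72 ± 0.645 (n = 4 each, SD), followed by spo-11, him-8, dsb-1, zim-1, zim-3 and zim-2. In that order the ranges were apart between him-17 and him-19 and between dsb-1 and zim-1, and the others overlapped. him-19 moved from the sixth place to the third, and the zim genes were last in both genotypes. Close places in 3A depended on the length used. Per kb of the longest coding sequence him-8 (1.99) was above spo-11 (1.97), and zim-2 (0.388) above zim-3 (0.374). The 223 bp of exon that zim-2 shares with zim-1 stayed in its exonic length.

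**Figure D4:**
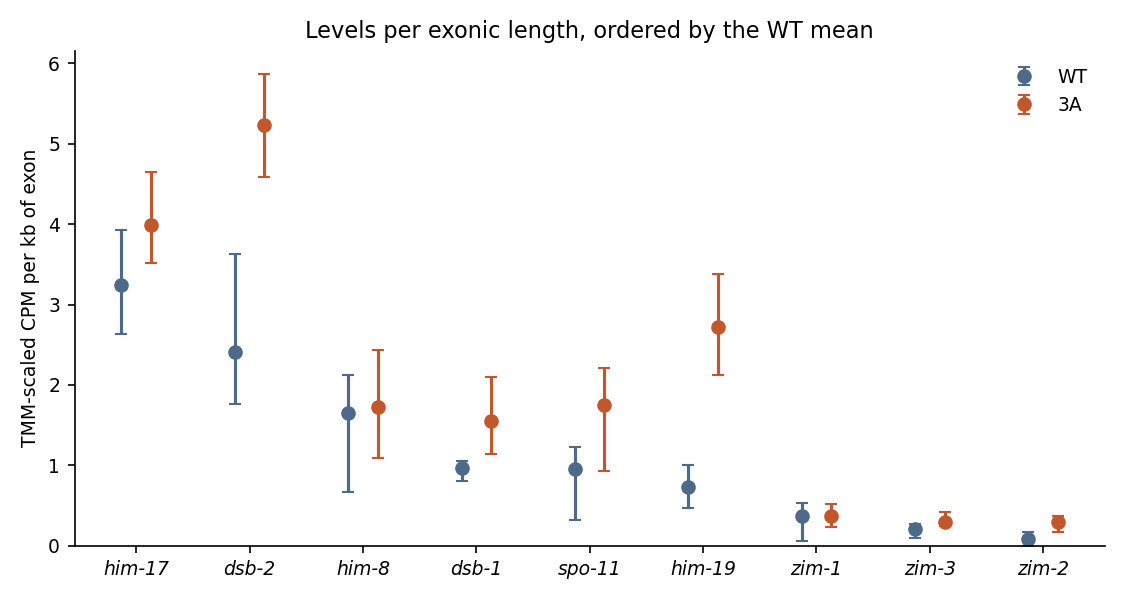
Mean level in TMM-scaled CPM per kb of merged exon in WT and 3A, with bars from the lowest to the highest of 4 libraries, ordered by the WT mean. The him-19 and dsb-2 ranges are higher in 3A and apart from WT, and the zim genes stay under 0.54 CPM per kb.

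Pairs of members differed in how closely they varied together over the 8 libraries. As a description over libraries that share genotype and scaling, Pearson's r of log2 CPM was 0.96 between him-8 and zim-1 and 0.95 between zim-2 and spo-11. It was -0.0024 between him-8 and him-19 and -0.021 between zim-1 and him-19, the only negative values among the pairs of members. The next lowest was 0.10, between zim-1 and dsb-1. WT replicate 1 was the lowest of the 8 libraries for him-8, zim-1, zim-2 and spo-11, and its part in these values was not tested. With many genes and few libraries the highest r is large by selection, and no shared regulation is read from it. Each member was set beside the genes most like it among all genes tested, by r over the same 8 libraries. For him-19 these were exo-3, an apurinic endonuclease gene (0.99), and Y14H12B.2 (0.99), with log2 fold changes of 1.13 (SE 0.25) and 1.59 (SE 0.33). For dsb-2 they were C55B7.11 and the splicing-related gene smu-1 (0.97 each), for dsb-1 F14D7.2 and ekl-1 (0.97 each), for spo-11 the cyclophilin gene cyn-4 (0.998) and F35G2.3 (0.997), and for him-17 lido-1 and the nuclear receptor gene nhr-65 (0.93 each). For zim-2 they were ets-8 and the forkhead gene fkh-3 (0.98 each), for zim-3 AH9.7 (0.98) and the telomere gene mrt-1 (0.91), for zim-1 eif-2Bgamma and dnj-15 (0.98 each), and for him-8 WBGene00020729 (0.99) and the mitochondrial ribosomal protein gene mrps-17 (0.98).

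Genes that work beside the members were taken from hand-written lists. For comparison, 42.8% of all genes tested had a positive log2 fold change. In the edgeR test 1235 of 12664 genes had an unadjusted p-value under 0.05 in either direction. Of 13 genes for pairing and the chromosome axis 12 were tested; 11 had a positive log2 fold change, none passed in either direction in edgeR or DESeq2, 1 had an unadjusted p-value under 0.05 in the edgeR test, and the median was 0.36. The smallest p-values were those of sun-1, htp-1 and hal-2. The nuclear envelope gene sun-1, whose protein carries the pairing centres, gave 1.62, 1.01, 1.32 and 0.498 CPM in the WT libraries by number and 2.05, 1.51, 3.06 and 3.30 CPM in the 3A libraries. The sun-1 groups overlapped, with a log2 fold change of 1.10 (SE 0.40). The axis gene htp-1 had a log2 fold change of 0.73 (SE 0.36), and hal-2, a gene of pairing quality control, one of 0.58 (SE 0.31). chk-2, the kinase gene that starts both pairing and break formation, had 0 to 9 counts per library and was not tested.

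Of the genes listed as partners of break formation, 9 of the 10 were counted and all 9 were tested. The list is not limited to genes that make breaks. All had a positive log2 fold change, from 0.15 to 0.49 with a median of 0.31, and in edgeR 0 passed and 0 had an unadjusted p-value under 0.05, with 0 passing in DESeq2. The smallest p-values belonged to mre-11, com-1 and rad-50. The nuclease complex genes mre-11 and rad-50 had log2 fold changes of 0.48 (SE 0.31) and 0.44 (SE 0.34). com-1 had one of 0.31 (SE 0.23), with 9.36 to 10.73 CPM in WT and 10.81 to 15.49 CPM in 3A. rec-1 was not analysed here. Of 14 repair and crossover genes 12 were tested, 9 with a positive log2 fold change and a median of 0.15. None passed in edgeR or DESeq2, and 1 had an unadjusted p-value under 0.05 in edgeR. cosa-1, which marks crossover sites, had 0.415 to 0.619 CPM in WT and 0.733 to 1.12 CPM in 3A. For cosa-1, as for com-1, every 3A library was above every WT library, which held for 3.80% of all genes. The log2 fold change of cosa-1 was 0.79 (SE 0.36). The crossover ring finger gene zhp-2 had 0.65 (SE 0.40), and the MutS homologue gene him-14 had 0.83 (SE 0.52). With libraries scaled by size alone the medians of the 3 lists were -0.065, 0.017 and -0.21, while the median of all genes moved to -0.40.

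**Figure D5:**
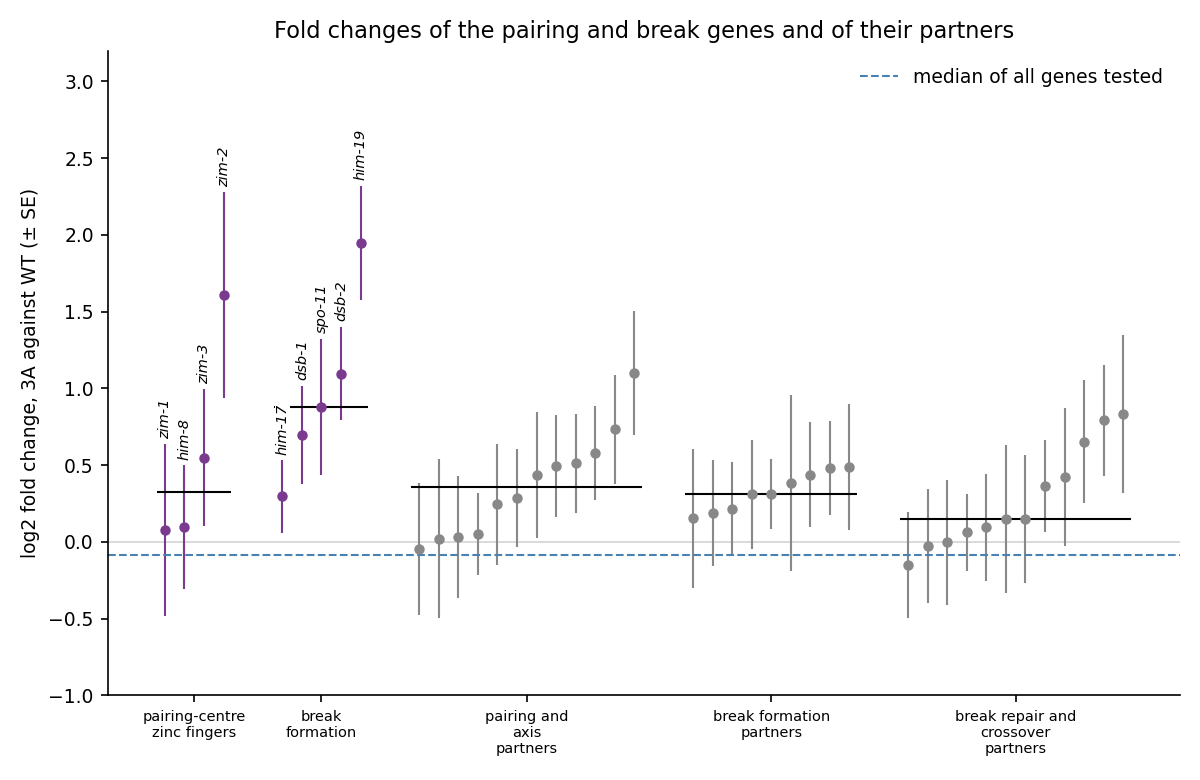
Log2 fold change of 3A against WT ± SE for the 9 members (purple, named) and the tested genes of the 3 partner lists (grey), with a black line at each median and a dashed line at the median of all genes tested (-0.083). him-19 and zim-2 are the highest points, followed by sun-1 of the pairing and axis partners, and the partner medians are 0.36, 0.31 and 0.15; him-8, zim-1 and him-17 are below 0 when libraries are scaled by size alone.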

How the data were processed

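The authors deposited 1 file of raw counts per library, with 46748 WormBase genes and 5 closing counters. Per the submitters' processing notes the tools were fastp, STAR, HTSeq and DESeq2 and the build WBcel235; versions are not given in the sources used here. The file names state stranded counting. Reads aligned to several places or shared by genes are in closing counters, outside the gene counts. Counts were fitted in R 4.3.3 with edgeR 4.0.16 (filterByExpr, minimum count 10; TMM; quasi-likelihood F-test; Benjamini-Hochberg adjustment over 12664 genes, called under 0.05), 3A against WT without a block, and with DESeq2 1.42.0 as an alternative. SE is the absolute log2 fold change divided by the square root of F. log2 CPM used a prior count of 2. Positions and exons are from Ensembl release 115 of WBcel235. The rule for named genes took the 9 members, lin-52, the nearest annotated gene on each side of a member (narrowed in use to protein-coding genes), the genes of each partner list that passed and the 3 of smallest p-value, and the 2 genes most like each member; chk-2, named after its values were seen, and rec-1, which has no value here, are outside it. Planned sequence features were not computed. The members and lists were chosen with earlier results of these data known. No replicate pair agreed within sampling noise (lowest chi-square per degree of freedom 55.6). The fit was tested on simulated data, in which 200 of 12664 genes had a log2 change of 2 in either direction. It recovered 74.5% of them, with 5 false calls. The counts were drawn with the fit's own dispersions and no library-wide shift, and the fitted changes of all 9 members were below 2. The recovery rate therefore does not carry over to the members. Whether replicates came from separate cultures is stated only as biological replicates in the series design.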

Additional observations from a re-analysis of the deposited data

Results flagged for a closer look

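Within each group of 4 libraries, 18 sets of values were screened for a library far from the others, and 3 were flagged; chance flags about 1 in 20. him-8 in WT replicate 1 was 0.839 CPM against 2.35 CPM in the nearest WT library, a gap that was 0.830 of the group's range. spo-11 in WT replicate 1 was 0.449 CPM against 1.63 CPM, a gap of 0.907 of the range. zim-3 in 3A replicate 1 was 0.925 CPM against 0.598 CPM, a gap of 0.833 of the range. Without WT replicate 1 the WT means were 2.47 ± 0.164 CPM for him-8 and 1.68 ± 0.0629 CPM for spo-11 (SD over the other 3 libraries).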

How the results depend on the processing

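The number of genes called over the whole table was 47. It was 10 with scaling by library size alone, 169 with DESeq2, 71 with no filter on low counts, 175 with the replicate block, 17 without both 3A libraries highest in ribosomal RNA (chosen after seeing the data), and 18 to 196 with each library left out in turn. Member genes called were 0, and 2 with DESeq2 (him-19 and dsb-2), 1 with no filter, 1 with the replicate block and 0 to 1 with a library left out; each single gene was him-19. Its adjusted p-value was 0.0564, 0.000185 with DESeq2, 0.0288 with no filter, 0.00693 with the block, 0.0110 without WT replicate 1, and up to 0.799 with library size alone. Its log2 fold change stayed between 1.72 and 2.21 in all 15 alternatives, and that of dsb-2 between 0.62 and 1.37. Negative values were -0.26 for him-8, -0.28 for zim-1 and -0.039 for him-17 with library size alone; with a library left out him-8 ran from -0.14 to 0.26 and zim-1 from -0.24 to 0.25. The median of all genes was -0.40 with library size alone, a shift of -0.32, -0.14 with no filter, -0.030 with the block and -0.10 to -0.020 with a library left out. Relative to it, the member median was 0.72 with library size alone. Medians of the pairing, break formation and repair partners were -0.065, 0.017 and -0.21 with library size alone, and 0.22 to 0.52, 0.19 to 0.46 and 0.07 to 0.30 with a library left out. The cause of these moves was not tested. Replicate numbers are shared by the genotypes, but deviations of same-numbered libraries correlated by 0.57, 0.60, 0.18 and 0.0085, and 3 of 8 libraries correlated best with their own number, so the numbers were not taken as pairs. Few counts limit zim-2, with 3 counts or fewer in WT replicates 1 and 4. WT replicate 4 had the fewest gene counts, and WT replicate 1 is not a shallow library. After TMM adjustment 3A replicate 4 was the smallest library, with a floor of 0.275 CPM against 0.249 CPM in WT replicate 4. It held 8 zim-2 counts.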
